A study of Mus musculus with 4 samples.

Results

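The genes described here build, power and maintain cilia, the hair-like projections of the cell surface. They were taken by gene name from the count table: cilia- and flagella-associated proteins (Cfap), axonemal dynein heavy chains (Dnah), dynein arm assembly factors (Dnaaf), intraflagellar transport proteins (Ift), Bardet-Biedl syndrome proteins (Bbs), radial spoke proteins (Rsph), sperm-associated antigens (Spag), and Foxj1. A gene was kept where its counts summed to 40 or more over the 4 libraries. Of 51826 gene models, 88 names matched and 84 passed. The names and the summed counts chose these genes, so their presence is not a result. Of the 4 left out, Spag11a and Spag11b had 0 counts, Rsph6a had 2 and Spag6 had 18. The members nearest above the minimum were Dnah14 with 82 counts, Rsph14 with 165 and Cfap58 with 220. The search also covered Dnai1 and Dnai2, and no gene model carried either name.

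The study measured poly(A) RNA in primary microglia cultures from newborn C57BL/6 mice, comparing 2 untreated (mock) libraries with 2 libraries from cultures given lysophosphatidylserine (LysoPS), a lipid that activates the receptor GPR34, for 4 h. All 4 libraries carry WT in their descriptions, read here as wild type. The cells were shaken off dissociated brain cultures after 2 weeks, and such cultures also grow astrocytes and other brain cells. The labels do not say whether the replicates came from separate animals or cultures, so p-values measure only the spread between these libraries, which may be technical. Deposited counts summed to 30001098 and 41572340 in the mock libraries and to 34689045 and 45193959 in the LysoPS libraries. Levels are given as CPM, counts relative to library size scaled by TMM, a correction for differences in RNA composition. Levels of different genes are compared as the deposited TPM, which also correct for transcript length.

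A motile cilium bends because axonemal dyneins, the motors of its outer and inner arms, slide microtubule doublets against each other. Radial spokes and the central pair of microtubules regulate the bending. In the brain such cilia are borne in tufts by ependymal cells, which line the ventricles, while most neurons and astrocytes carry a single immotile primary cilium. All cilia are assembled by intraflagellar transport, in which trains of IFT-A and IFT-B complexes move towards the tip and back to the base. The BBSome works with these trains as an adaptor for membrane proteins. The transcription factor FOXJ1 drives the motile cilium programme, and RFX factors act with it through a DNA motif known as the X-box.

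X-box matches stood in promoters of members that fell and of members that did not pass the test, as 4 windows show. Each window holds 80 bases upstream of the RefSeq start, on the gene's strand in build GRCm38.p6, 5′ to 3′, with the match in capitals. They lie outside the deposited gene models, at chr4:34730207-34730286 (Cfap206, minus strand), chr16:44394716-44394795 (Cfap44, plus strand), chr3:36613478-36613557 (Bbs7, minus strand) and chr16:49699153-49699232 (Ift57, plus strand).
Cfap206: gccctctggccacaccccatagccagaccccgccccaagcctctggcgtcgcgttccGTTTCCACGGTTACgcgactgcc
Cfap44: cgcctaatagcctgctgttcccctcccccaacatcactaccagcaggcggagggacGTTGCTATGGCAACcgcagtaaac
Bbs7: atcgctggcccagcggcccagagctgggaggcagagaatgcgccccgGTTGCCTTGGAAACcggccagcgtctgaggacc
Ift57: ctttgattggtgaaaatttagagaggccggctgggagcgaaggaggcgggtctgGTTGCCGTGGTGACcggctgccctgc

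After 4 h of LysoPS, 52 of the 84 cilium genes fell, none rose and 32 did not pass the test (edgeR's quasi-likelihood test, Benjamini-Hochberg adjusted p under 0.05 over 19057 tested genes). Among all tested genes 12.6% fell and 12.8% rose, 25.5% in either direction. The median log2 fold change of the members was -0.55, a level of 68.3% of mock, against -0.01 for all tested genes. Values ran from -1.86 for Dnah14 to 0.35 for Bbs12, and 80 of the 84 were below 0, against 51.1% of all tested genes. Dnah14, with 9 counts in each LysoPS library, reached the count filter through the mock libraries only. Of the 83 members with 100 counts or more, 51 fell. Among the 8830 genes with total counts in the middle range of the members (506 to 8219), 16.1% fell and the median was -0.03. Because the members were chosen by name with results of these data known, these counts are descriptive and no test of the list was made.

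The summed level of the members was 3137 and 3195 CPM in the mock libraries and 2142 and 2368 CPM in the LysoPS libraries. On the TPM scale the sums were 2486 and 2516 for mock and 1584 and 1726 for LysoPS. Both LysoPS sums lay below both mock sums on either scale. An exact permutation test of 2 against 2 libraries cannot give a two-sided p below 0.333. In 74 of the 84 genes both LysoPS libraries lay below both mock libraries, which held for 34.5% of all tested genes. In 4 genes, Bbs12, Ift20, Dnah17 and Spag7, both lay above (32.5% of all tested genes), and in 6 the groups overlapped. The 2 mock libraries were close to each other over the members, with a median absolute log2 difference of 0.078, and the LysoPS libraries differed by 0.145. In this bulk RNA, fewer cells of a type and less RNA per cell cannot be told apart.

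**Figure D1:**
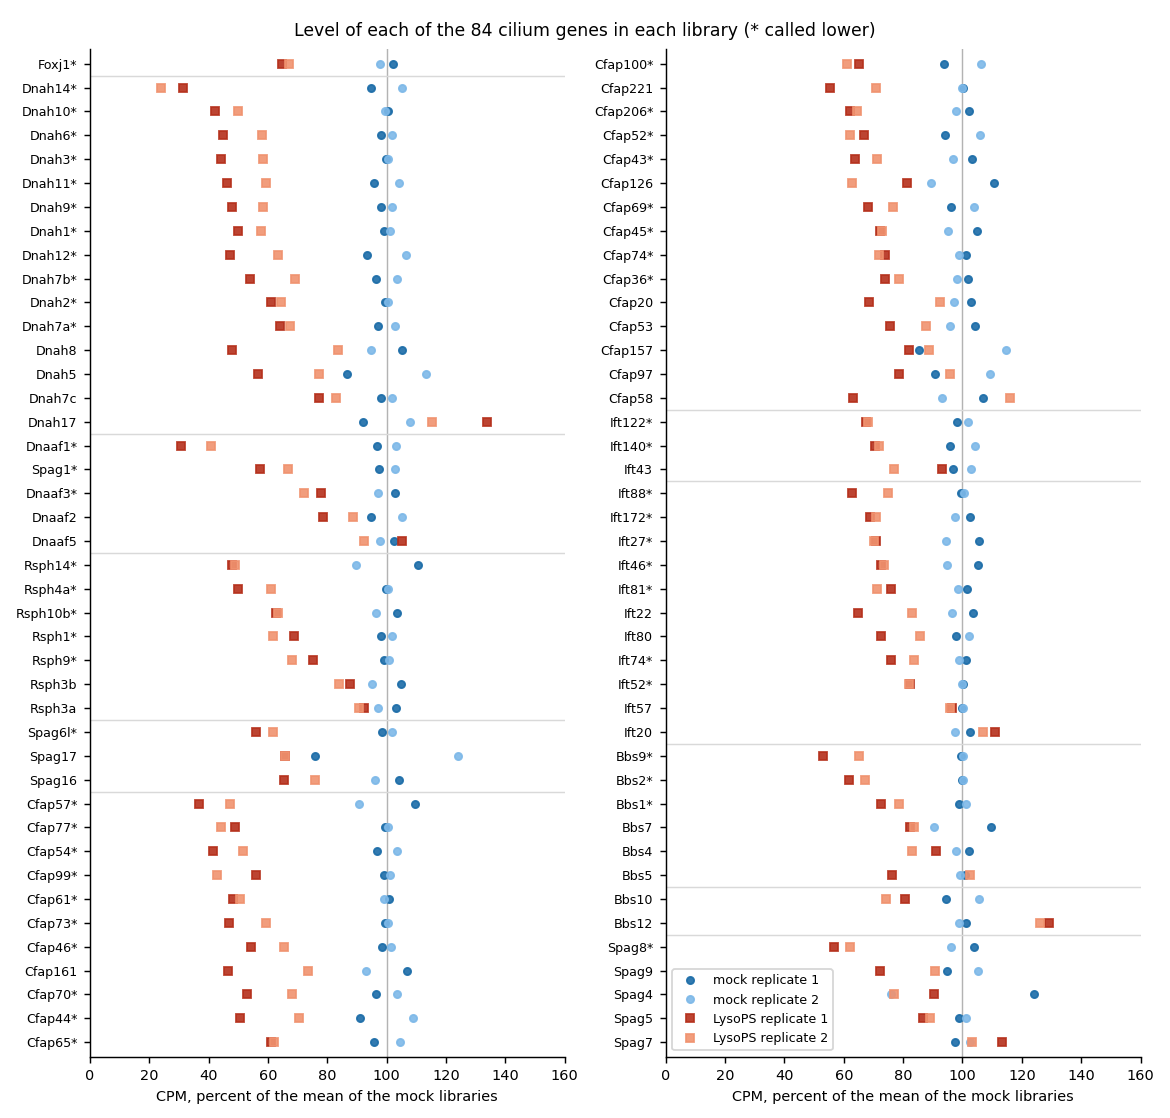
Level of each of the 84 genes in each library, as CPM in percent of the mean of the mock libraries, ordered by role, with an asterisk on the 52 genes that fell. In 74 genes both LysoPS squares lie left of both mock circles.

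Foxj1, the transcription factor of the motile cilium programme, had the highest level of all members, with a mean of 161 TPM. The gene lies on chromosome 11, minus strand, at chr11:116330704-116335399. Its level was 251 and 241 CPM in the mock libraries and 159 and 165 CPM in the LysoPS libraries. The libraries of each group were close together and the groups did not overlap. Foxj1 fell by 0.60 ± 0.06 (SE) on the log2 scale, to 65.9% of mock (edgeR adjusted p = 0.0039).

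The axonemal dynein heavy chains, the motor subunits that generate the force of the beat, fell in 11 of 15 genes, with a median log2 fold change of -0.85. Dnah9, an outer arm heavy chain, was at 63.6 and 65.9 CPM in mock and 31.1 and 37.7 CPM in LysoPS. This was a log2 fold change of -0.91 ± 0.11 (edgeR adjusted p = 0.0060). The fitted level after LysoPS was 53.2% of mock, and the groups did not overlap. Dnah10, an inner arm heavy chain, was at 16.5 and 16.3 CPM in mock and 6.90 and 8.19 CPM in LysoPS, a fold change of -1.12 ± 0.13 (edgeR adjusted p = 0.0051). The other chains named by p-value were Dnah1 (-0.89), Dnah2 (-0.67), Dnah3 (-0.96), Dnah6 (-0.96) and Dnah11 (-0.92), and each fell. Dnah14 had the most negative value, -1.86 ± 0.37 (edgeR adjusted p = 0.0227), at the lowest counts, 25 and 39 in mock and 9 and 9 in LysoPS. It reached the count filter through the mock libraries only. Dnah5, an outer arm heavy chain, was not past the threshold at -0.58 (edgeR adjusted p = 0.0938), and Dnah17 had a positive value of 0.31 (adjusted p = 0.363). Dnah7a, Dnah7b and Dnah7c share 40.3% to 48.5% of their 50-base words with other genes. The share with a single other member of the trio is 30.6% to 38.8%, so reads may be split among them.

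Of 5 dynein arm assembly factors, which fold and preassemble the arms in the cytoplasm, 3 fell. Dnaaf1 was at 6.23 and 6.64 CPM in mock and 1.97 and 2.63 CPM in LysoPS. Every treated value was below every mock value. Dnaaf1 fell by 1.48 ± 0.19 on the log2 scale, to 35.9% of mock (edgeR adjusted p = 0.0071). Overlap with the antisense gene Taf1c covers 20.7% of its exon bases, and since no source used here gives the strandedness, reads of the pair cannot be told apart there. Spag1, which also acts in arm assembly, fell by 0.69 and Dnaaf3 by 0.42. Dnaaf5 stayed at 98.7% of mock (log2 fold change -0.02 ± 0.10, edgeR adjusted p = 0.905).

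Radial spoke genes fell in 5 of 7 cases, with a median log2 fold change of -0.62. Rsph4a, a spoke head protein, was at 84.5 and 85.1 CPM in mock and 42.3 and 51.7 CPM in LysoPS. Rsph1, also of the spoke head, was at 39.9 and 41.3 CPM in mock and 27.9 and 25.1 CPM in LysoPS. Groups overlapped for neither gene, and the log2 fold changes were -0.85 ± 0.11 and -0.62 ± 0.09 (edgeR adjusted p = 0.0072 and 0.0096). Rsph10b fell by 0.66. Rsph3a and Rsph3b, which share 74.0% and 75.8% of their 50-base words with each other, had values of -0.13 and -0.22 and did not pass the test. Of the 3 central pair SPAG genes 1 fell: Spag6l was at 36.5 and 37.7 CPM in mock and 20.7 and 22.9 CPM in LysoPS, with no overlap (log2 fold change -0.77 ± 0.09, edgeR adjusted p = 0.0056).

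The 26 Cfap genes, a heterogeneous group of cilia- and flagella-associated proteins that share a name, fell in 18 cases with a median of -0.66. Cfap61, a radial spoke component, was at 16.9 and 16.6 CPM in mock and 8.10 and 8.51 CPM in LysoPS, and had the smallest p of all members (log2 fold change -1.02 ± 0.11, edgeR adjusted p = 0.0038). Cfap54, of the central apparatus, was at 70.8 and 75.7 CPM in mock and 30.4 and 37.9 CPM in LysoPS (-1.10 ± 0.13, edgeR adjusted p = 0.0048). Neither gene's groups overlapped, and the fitted levels after LysoPS were 49.5% and 46.7% of mock. Cfap57 (-1.25), Cfap77 (-1.11), Cfap46 (-0.74), Cfap65 (-0.70), Cfap100 (-0.67), Cfap206 (-0.66), Cfap52 (-0.64) and Cfap43 (-0.57) also fell. Of the 5 members with the highest TPM, 3 were Cfap genes. Cfap36, at a mean of 91.2 TPM, fell by 0.39 (edgeR adjusted p = 0.0201), while Cfap126 at 93.8 TPM and Cfap20 at 75.5 TPM had values of -0.47 and -0.31 that did not pass (adjusted p = 0.103 and 0.198).

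**Figure D2:**
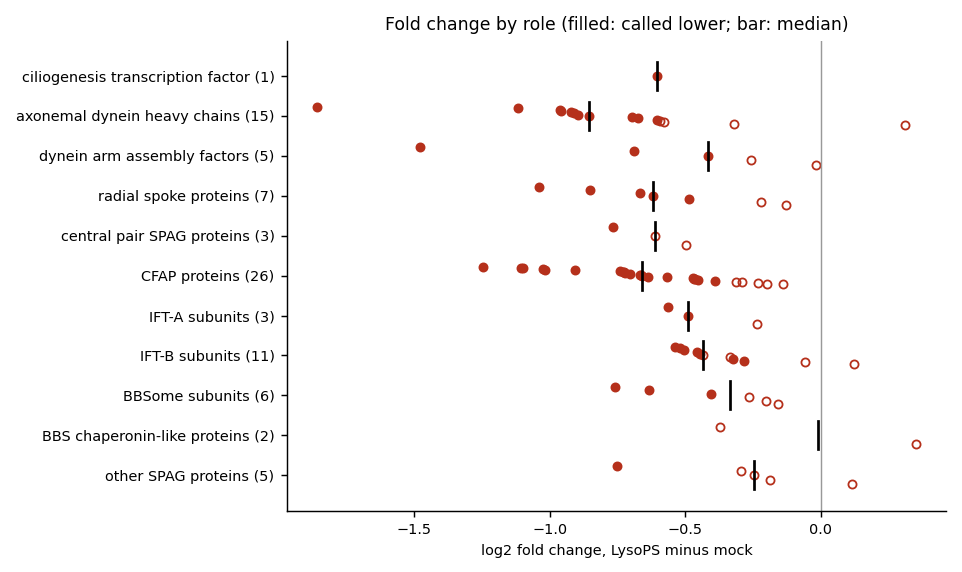
Log2 fold change (LysoPS minus mock) of each of the 84 genes by role, with the number of genes in brackets. Filled points passed the test, open points did not, and the black bars are medians, which run from -0.85 in the dynein heavy chains to -0.01 in the BBS chaperonin-like proteins.

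Intraflagellar transport genes, which are used by primary and motile cilia alike, fell in 9 of 14 cases with a median log2 fold change of -0.44. Of the 3 IFT-A subunits 2 fell. Ift122, of the IFT-A core, was at 55.7 and 57.9 CPM in mock and 38.2 and 38.6 CPM in LysoPS, with a narrow spread in each group and no overlap. It fell by 0.56 ± 0.07 (edgeR adjusted p = 0.0068), and Ift140, its partner in the core, by 0.49. Of the 11 IFT-B subunits 7 fell. Ift172, a peripheral IFT-B subunit, was at 63.5 and 60.4 CPM in mock and 42.7 and 43.9 CPM in LysoPS (-0.52 ± 0.08, edgeR adjusted p = 0.0091). Ift20, which also works at the Golgi and had the highest TPM of the IFT genes at 64.3, had a value of 0.12 (adjusted p = 0.328), and Ift57 was at 96.1% of mock (adjusted p = 0.616). Ift43, of IFT-A, had a value of -0.24 (adjusted p = 0.244).

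Of the 8 Bbs genes 3 fell, all of them BBSome subunits. Bbs9 was at 36.4 and 36.6 CPM in mock and 19.3 and 23.7 CPM in LysoPS, without overlap (log2 fold change -0.76 ± 0.12, edgeR adjusted p = 0.0121). Bbs2 fell by 0.63 and Bbs1 by 0.41. Bbs4, the Bbs gene with the highest TPM, had a value of -0.20 (edgeR adjusted p = 0.168). Bbs10 and Bbs12, chaperonin-like proteins that help assemble the BBSome, had values of -0.37 and 0.35 and did not pass (adjusted p = 0.107 and 0.0777).

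The 5 remaining Spag genes are not a functional group, and 1 of them fell. Spag8, a microtubule-binding protein of sperm and motile cilia, fell by 0.75 ± 0.11 (edgeR adjusted p = 0.0105). Spag9, a scaffold of JNK signalling and vesicle transport, had the second highest TPM of all members at 132. Its level was 412 and 456 CPM in mock and 313 and 394 CPM in LysoPS, a value of -0.30 that did not pass (edgeR adjusted p = 0.151). Spag5, a spindle protein, and Spag7 had values of -0.19 and 0.11. The counts by role stand beside 12.6% lower and 12.8% higher over all tested genes, and a count such as 1 of 5 says little. Differences in response between these roles were not tested. Members outside the naming rule, such as Dnah5, Dnah17, Dnaaf5, Ift57, Bbs1, Bbs10, Spag5 and Spag7, were named after their values were seen.

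**Figure D3:**
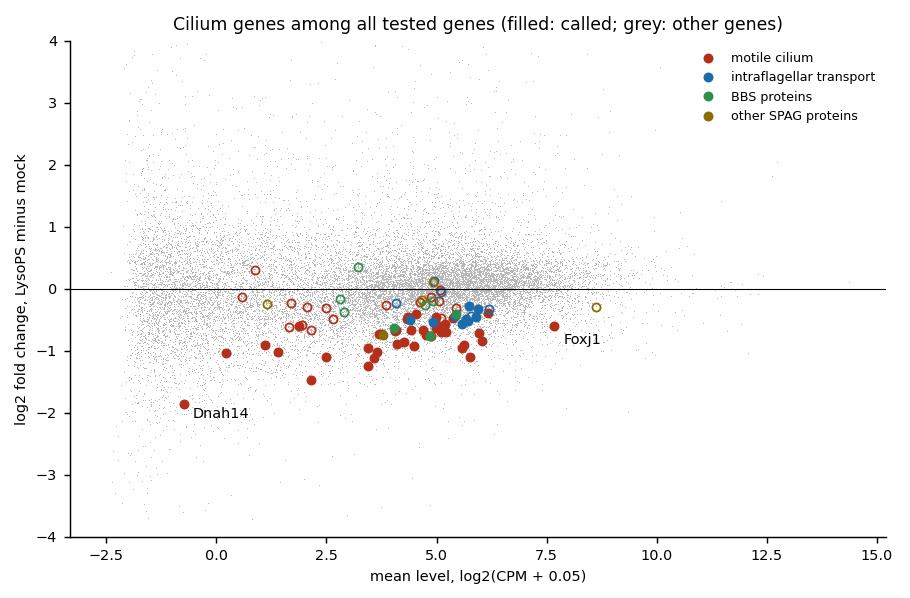
Log2 fold change (LysoPS minus mock) against mean level as log2(CPM + 0.05) for the 84 members (coloured; filled points passed the test) among all tested genes (grey). The vertical axis stops at 4 in either direction, so genes with larger changes lie outside; members lie mostly below 0 at all levels, with Foxj1 near the high end and Dnah14 at the low end.

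Dynein heavy chains are among the longest transcripts, and the members' values are therefore also given by length of the longest annotated transcript. Of 14 members under 2 kb, 8 fell with a median of -0.48, while 7.64% of all tested genes of that length fell. Of 35 members of 2 to 4 kb, 18 fell with a median of -0.44, against 13.2% of all. Of 18 members of 4 to 8 kb, 13 fell with a median of -0.50, against 16.2%. Of 17 members of 8 kb and over, 13 fell with a median of -0.85, against 18.7%. Members fell in every length class. The transcript length implied by the ratio of counts to FPKM differed by over 1.2 times between libraries for 13 of the 52 genes that fell, among them Dnah10, Dnah11, Dnah3, Cfap61 and Rsph10b.

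Cilium genes outside the name rule were taken from 8 lists by function, with 204 genes tested, of which 87 fell and 4 rose. The shares over all tested genes were 12.6% and 12.8%. The list nearest in function, other proteins of the motile axoneme, fell in 42 of 60 genes with a median log2 fold change of -0.71 and no gene rising. Hydin, of the central apparatus, was at 28.4 and 26.9 CPM in mock and 12.2 and 13.5 CPM in LysoPS (-1.11 ± 0.10, edgeR adjusted p = 0.0029). Drc3, of the nexin-dynein regulatory complex, and Wdr78, an axonemal dynein component, each fell by 0.78. Nme5, the most abundant of the list at 113 TPM, fell by 0.48.

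Among 21 regulators of multiciliation and cilium transcription, 10 fell and 1 rose, with a median of -0.41. Mcidas, which switches cells to the multiciliated fate, was at 3.51 and 4.25 CPM in mock and 0.747 and 1.14 CPM in LysoPS, and fell by 2.02 ± 0.28 on the log2 scale (edgeR adjusted p = 0.0077). Cdc20b, a centriole amplification gene, fell by 2.30, Ccno, a cyclin-like protein needed for centriole amplification, by 1.36, and Trp73, the p73 transcription factor upstream of Foxj1, by 1.17. These 4 fell further than Foxj1 in log2 value, a difference that was not tested. Ccno, Mcidas and Cdc20b lie close together on the plus strand of chromosome 13, between 112987802 and 113091195. Cdc20b had low counts, 67 and 101 in mock and 17 and 18 in LysoPS. Myb fell by 1.43, Rfx4 by 0.74 and Rfx2 by 0.40, while Rfx3 (-0.60, edgeR adjusted p = 0.0712) and Gmnc (-0.41, adjusted p = 0.131) did not pass. E2f4, which acts with Mcidas but also in the cell cycle, rose by 0.57, and Tfdp1, the most abundant of the list, had a value of 0.09 (adjusted p = 0.445). Mcidas, Myb, E2f4, Gmnc and the Rfx genes lie outside the naming rule and were picked with their values known.

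The remaining lists hold genes that primary cilia use as well. Their counts stand beside 12.6% lower and 12.8% higher over all tested genes. Of 24 other transport subunits and motors 10 fell (median -0.30), including Wdr19 of IFT-A (-0.81), Ttc30b of IFT-B (-0.63) and Dync2li1 of the retrograde motor (-0.46), while Dynlrb1, a dynein light chain and the most abundant of the list, had a value of 0.22 (edgeR adjusted p = 0.122). Of 30 transition zone genes, which build the gate at the base of the cilium, 11 fell (median -0.36), including Nphp4 (-0.73), Tmem231 (-0.59) and Tctn2 (-0.52), while B9d1, the most abundant, had a value of -0.26 (edgeR adjusted p = 0.105). Of 19 Hedgehog pathway genes 8 fell (median -0.32), including the coreceptors Cdon (-0.94) and Boc (-0.72), and Evc (-0.70), while the coreceptor Gas1, the most abundant, had a value of 0.05 (edgeR adjusted p = 0.603). Of 22 basal body genes 5 fell and 1 rose (median -0.18): Cep83 of the distal appendages rose by 0.84, Cep131 fell by 0.59, and Mchr1, a receptor of the ciliary membrane, fell from 1.56 and 1.55 CPM in mock to 0.597 and 0.503 CPM in LysoPS. Of 17 further BBSome and ARL genes 1 fell, Ttc8 (-0.48), and 1 rose, Rab11a (0.38), with a median of -0.02. Of the 12 cilium disassembly genes 1 rose and none fell, with a median of -0.06.

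**Figure D4:**
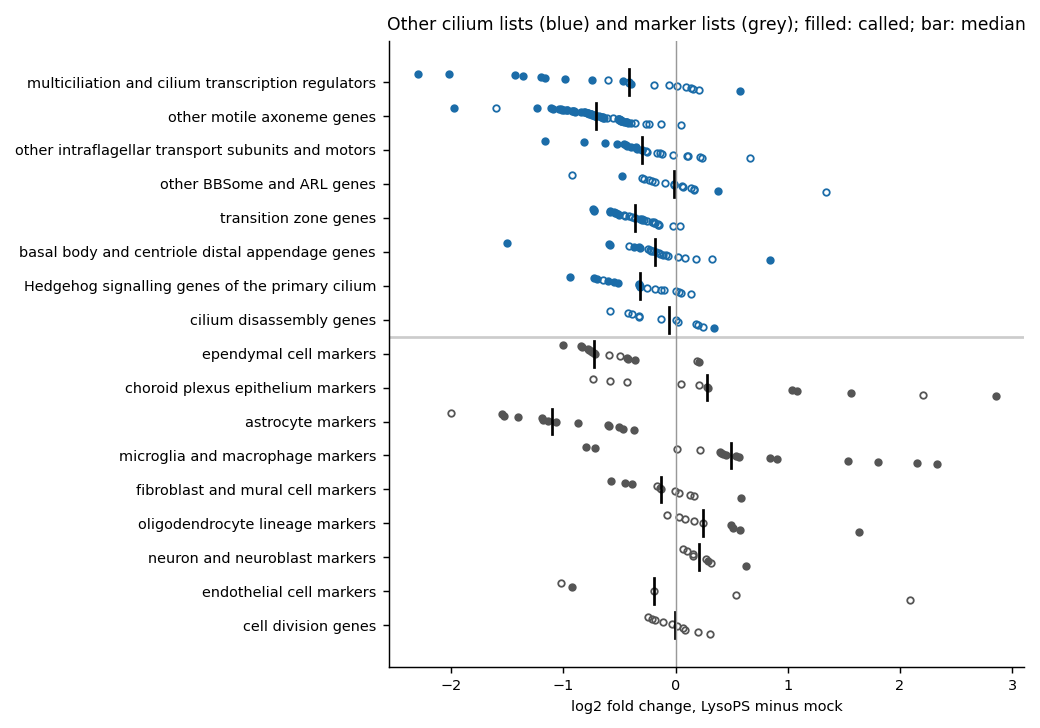
Log2 fold change (LysoPS minus mock) of genes in 8 related cilium lists (blue) and in lists of cell type markers and cell division genes (grey), with filled points past the test and black bars at medians. The axoneme list has a median of -0.71 and the astrocyte markers of -1.10, while the disassembly list lies near 0.

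Cell type markers also changed: most astrocyte and ependymal markers fell like these genes, while most microglia and macrophage markers rose. The label microglia was checked first: Csf1r, the receptor on which microglia depend, was at 351 and 320 CPM in mock and 458 and 425 CPM in LysoPS. The astrocyte filament gene Gfap was at 5970 and 5683 CPM in mock and 2679 and 2900 CPM in LysoPS. On the TPM scale Gfap stood above Csf1r in every library, at 1903 TPM or more against 183 TPM or less. Of 14 astrocyte markers 12 fell and none rose, with a median of -1.10 and a summed level of 11330 and 10231 CPM in mock and 5262 and 6018 CPM in LysoPS. Of 16 ependymal markers 10 fell and 1 rose, with a median of -0.72; 4 of the 16 are also on the cilium lists above. Ccdc153, an ependymal marker, was at 22.5 and 22.3 CPM in mock and 11.4 and 11.0 CPM in LysoPS. The summed ependymal level was 987 and 916 CPM in mock and 925 and 904 CPM in LysoPS, and on the TPM scale 1623 and 1529 in mock and 1238 and 1247 in LysoPS. The groups did not overlap on the TPM scale but did in CPM, with Cd24a, which other cells also express, making up 533 and 527 CPM of the sum in mock and 615 and 609 CPM in LysoPS. Of 16 microglia and macrophage markers 11 rose and 2 fell, with a median of 0.50 and sums of 6154 and 5619 CPM in mock and 14650 and 12858 CPM in LysoPS. On the TPM scale the microglia and macrophage sums were 9570 and 9070 in mock and 20652 and 19037 in LysoPS. The astrocyte sums were 7904 and 7275 TPM in mock and 3064 and 3646 TPM in LysoPS. Summed over the lists on the TPM scale, astrocyte markers were thus below microglia and macrophage markers in every library, the reverse of Gfap against Csf1r. In CPM, the astrocyte sums were higher in both mock libraries and lower in both LysoPS libraries. The lists hold 14 and 16 genes, and such sums do not rank the cell types. No gene of the astrocyte, ependymal or microglia and macrophage lists was at 0 in all libraries. Choroid plexus markers rose in 5 of 12 cases and none fell, with a median of 0.28. Values ran from -0.73 to 2.85, and 3 of the 12 were below 0. The largest was that of Ttr, the transthyretin gene, up by 2.85 ± 0.14. Fibroblast and mural cell markers fell in 3 of 11 cases and rose in 1. Oligodendrocyte lineage markers rose in 4 of 9, neuron and neuroblast markers rose in 2 of 8, and endothelial markers fell in 1 of 5. Among all tested genes 12.6% fell and 12.8% rose, and in lists this short counts such as 1 of 5 or 2 of 8 say little about a cell type. The part of these cell types in the lower cilium values was not tested.

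The promoter windows were read from RefSeq's table for GRCm38.p6, which covers 250 bases before to 50 after each start. Of the 84 members 68 matched, with 73 windows. The X-box was searched on both strands as GTNNCC followed by 3 bases of any kind and GNAAC. It was found in 15 of 73 member windows (20.5%), against 441 of 15916 windows of tested genes (2.77%). A forkhead core, GTAAACA on either strand, was in 3 windows (4.11%), against 2.68%. The 15 members with an X-box match include 6 that fell, Cfap206, Cfap44, Cfap45, Cfap61, Bbs1 and Spag6l, and 9 that did not pass, while 40 of the 68 members with a window fell. Those that did not pass include Bbs7 (-0.27, edgeR adjusted p = 0.170), Ift57, Ift22, Spag16 and Dnaaf5. In the windows printed above, Cfap206 and Cfap44 fell by 0.66 and 0.72, and Bbs7 and Ift57 carry a match as well. A match describes the letters only.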

How the data were processed

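RNA-seq of 4 libraries (2 mock, 2 LysoPS) was used. The authors deposited raw counts, TPM and FPKM per gene model in one table. Per the submitters' processing notes, FastQC 0.11.2, Trimmomatic 0.36, HISAT2, StringTie and build GRCm38 were used; settings and strandedness are not given in the sources used here. FPKM deposited by the authors served only to derive implied transcript length.

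Counts were fitted with edgeR 4.0.16 in R 4.3.3 (TMM, filterByExpr with a minimum count of 10, quasi-likelihood F test, 2 residual degrees of freedom, Benjamini-Hochberg over 19057 genes, threshold 0.05), LysoPS minus mock, without covariates. CPM use TMM-scaled library sizes. Scripts were tested on simulated data. DESeq2 1.42.0 and other settings are alternatives. Sequence sharing, lengths and exon overlap came from GENCODE M21, in which 71 of 84 members have the deposited coordinates.

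Members, lists and roles were chosen with earlier results of these data known. Genes named are the 30 called members with the smallest p, Foxj1, the highest TPM overall and per role, those nearest the count minimum, and per related list the 3 smallest p and the highest TPM. The protocol label describes 1 treated replicate, while 2 samples carry LysoPS labels; the sample labels were followed. One gene that this rule selects is not reported here.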

Additional observations from a re-analysis of the deposited data

How the results depend on the processing

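No member passed the test as higher under any setting. Of 1084 values for the 100 named genes, 963 kept direction and side of the threshold, 91 lost and 26 gained a call, and 4 changed sign, all in genes that did not pass the test in either case: Dnaaf5 ran from -0.12 to 0.076 with 1 library left out and was 0.021 with length and GC trends removed, and Cfap58 ran from -0.66 to 0.22 with 1 library left out. With all 4 libraries, 51 to 57 members fell under other scalings, filters, DESeq2 (51), a replicate block (54) and removal of length and GC trends (57, added after seeing the data). Among all tested genes 8.03% to 15.7% fell in these settings. Restricting to genes of stable implied length gave 39 of 65 members, against 15.6% of all genes tested there. Leaving out the members with the largest shares of common sequence or exons gave 50 of 78, against 12.6% of all tested genes, a setting also added later. It dropped Dnaaf2, Dnah7a, Dnah7b, Dnah7c, Rsph3a and Rsph3b, and kept members with smaller overlaps such as Dnaaf1. Of the 52 genes, 46 fell in every such setting that tested them, and Cfap73, Dnah14, Dnah7a, Ift52, Ift74 and Rsph14 did not. Equal replicate numbers are only numbers here: same-numbered libraries' deviations correlated at 0.106 with only 2 pairs, and nothing in the labels pairs them, so the block is not the main result.

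Leaving out 1 library gave 19 to 56 members lower. Dropping mock replicate 1 left 23 calls and dropping mock replicate 2 left 19; the remaining mock library is then assumed to vary like the LysoPS libraries. The ranges were 17 to 41 for motile cilium genes, 0 to 10 for intraflagellar transport, 1 to 3 for Bbs genes, 32 to 92 for the related lists (91 in the full data) and 2165 to 5356 for all genes in either direction. The median log2 fold change of the members stayed between -0.61 and -0.50, and the summed level ratio between -0.56 and -0.42 (log2). Bbs9, Cfap206, Cfap46, Cfap54, Cfap57, Cfap61, Cfap65, Cfap77, Dnaaf1, Dnah1, Dnah10, Dnah11, Dnah6, Dnah9, Foxj1, Rsph4a and Spag6l fell in every setting that tested them, 17 in all.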
